A study of Mus musculus with 161 samples.

Results

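ΔN(1–265) is CTCF without its amino acids 1 to 265, the stretch before its zinc fingers. It was compared with full-length CTCF by chromosome-conformation capture carbon copy (5C), which counts ligations between restriction fragments. All 5C libraries of the label Del_1-265 with auxin+dox4days were taken, 10 in number, of 91 5C libraries in the series, which also holds other assays. Of these, 6 came from line EN186.4 (clone 1) and 4 from line EN186.6 (clone 2). The reference was the line EN133.10 with the full-length cDNA under the same treatment, with 14 libraries. All lines derive from male E14Tg2a mouse embryonic stem cells (mESCs) with the genotype CTCF-AID, Tir1 and rtTA3G. The endogenous CTCF therefore carries an auxin-inducible degron (AID), and auxin was given for 4 days to degrade this CTCF while doxycycline (dox) induced the FLAG-tagged transgene from a TetO promoter, knocked in at the Tigre locus. The full-length line with auxin alone (2 libraries) is given beside the others as values only. Each line is 1 clone, so the replicates are libraries of a clone, and p-values measure the spread between libraries. The amount of transgenic CTCF cannot be read from 5C, and its part in the differences was not tested.

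CTCF binds DNA through its zinc fingers in a given orientation, so that its N terminus faces one side of the site. Cohesin, a ring complex that extrudes chromatin loops, is held at CTCF sites on that side, and pairs of sites whose motifs point towards each other form loops and limit topologically associating domains (TADs). Contacts across a TAD boundary are then rarer than contacts at the same distance inside a TAD, which is known as insulation. The region studied holds Xist, the non-coding RNA that silences an X chromosome in female cells, and its antisense partner Tsix, which run up to a TAD boundary. The comparison asked what else in the contact map differs when the N terminus is absent, beyond the boundary bins themselves.

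The 22 libraries with complete counts held between 4509541 and 23419010 ligation products, and the count tables of 2 full-length libraries stop early and were used only in corrected form. In the corrected matrices, 27.4% to 59.0% of primer pairs were at 0. Of all primers, 454 forward and 465 reverse were measured in every library and kept. Libraries of neighbouring numbers, here called a run, deviated together, with correlations of 0.17 to 0.80 over 20 pairs. Only 3 runs held both groups, with 6 full-length and 10 ΔN(1–265) libraries, and values within these runs are therefore printed beside the results. The labels give replicate numbers 3 and 4 to 2 full-length libraries each. The later ones are called 3b and 4b here, and the labels do not say whether they are separate cultures. Full-length replicates 3b and 4b formed a run without ΔN(1–265) and stood apart in long-range contacts. The corrected matrices of 5 full-length libraries held 920 primers in place of 922. The 2 libraries without dox formed a run of their own, without either group, and also held 920 primers. The sources used here do not say what a run shares, and its part in the results was not tested beyond these values.

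The region was cut at its 6 boundary bins of 20 kb into 7 segments (mm9). Segment 1 (chrX:98831148-99151147) and segment 2 (chrX:99171148-99411147) share the gene Nhsl2. Segment 3 (chrX:99431148-100451147) holds Cited1, segment 4 (chrX:100471148-100671147) holds Chic1, Tsx and most of Tsix and Xist, and segment 5 (chrX:100691148-101211147) holds Rlim. Segment 6 (chrX:101231148-103211147) is the longest with 1980 kb, and segment 7 (chrX:103231148-103425147) lies after boundary 6, which holds Cox7b and the start of Atp7a. FLAG–CTCF peaks of the full-length line, taken from the deposited list, number 78 in the region. These peaks come from cells given auxin and dox for 2 days, whereas the 5C cells had 4 days. They fell in 54 bins, and boundary 5 between Rlim and segment 6 was the only boundary bin without one.

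Sequences are shown for the peaks at the ends of the contacts described further on, because CTCF acts in an oriented way. Each run gives 47 bases of mm9, read 5′ to 3′ on the stated strand, and the capitals mark a match to the core letters AGNGGGC or AGGTGGC, searched on both strands. These matches were found in 55.1% of the region's peaks and 61.3% of all 49682 peaks, against 13.1% of windows of equal length 2000 bases away.
Boundary 2, intergenic, chrX:99414646-99414692, plus strand: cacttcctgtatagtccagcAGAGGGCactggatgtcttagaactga
Segment 3, intron of Hdac8, chrX:99672305-99672351, minus strand: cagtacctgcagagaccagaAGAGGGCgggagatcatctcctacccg
Segment 4, intron of Tsix, chrX:100636328-100636374, minus strand: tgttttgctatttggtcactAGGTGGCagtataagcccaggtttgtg
Boundary 4, exon of Tsix beyond the 5′ end of Xist, chrX:100679556-100679602, plus strand: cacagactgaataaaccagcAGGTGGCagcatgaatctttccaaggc
Segment 5, intergenic near Rlim, chrX:101185944-101185990, minus strand: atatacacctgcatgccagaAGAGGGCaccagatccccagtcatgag
Segment 6, intergenic, chrX:102462456-102462502, plus strand: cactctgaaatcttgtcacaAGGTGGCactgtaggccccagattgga
End of segment 6, intergenic between Magt1 and Cox7b, chrX:103208753-103208799, minus strand: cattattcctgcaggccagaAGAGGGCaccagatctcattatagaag
The matches of boundaries 2 and 4 shown here lie on the plus strand and face downstream, and those near Rlim and before Cox7b lie on the minus strand and face upstream.

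The share of contacts was first compared by distance between fragments, and none of 8 distance classes passed the permutation test at an adjusted or unadjusted p (0% called). Fragments under 50 kb apart made up 53.0% ± 3.84 of the contacts in full-length (SD, n = 14) and 54.5% ± 1.70 in ΔN(1–265) (SD, n = 10). At 50 to 100 kb the shares were 8.41% ± 0.660 and 8.28% ± 0.288, and at 100 to 200 kb 9.51% ± 0.886 and 9.01% ± 0.319. The class of 200 to 400 kb differed by −0.658 percentage points, with 9.71% ± 0.962 in full-length and 9.05% ± 0.325 in ΔN(1–265) (adjusted p = 0.203, permutation test). All 10 ΔN(1–265) libraries lay under the full-length median there, but inside the full-length range.

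Farther apart, the shares were 8.48% ± 0.760 and 8.05% ± 0.294 at 400 to 800 kb, and 6.58% ± 0.674 and 6.24% ± 0.303 at 800 to 1600 kb. At 1600 to 3200 kb full-length libraries ranged from 2.83% over a median of 3.65% to 5.19%, and ΔN(1–265) libraries from 3.55% over 4.06% to 4.65%. Beyond 3200 kb the means were 0.651% ± 0.167 and 0.774% ± 0.101 (adjusted p = 0.203, permutation test). Without full-length replicate 3b, whose long-range share was the highest, this last class passed the test with a difference of 0.157 percentage points.

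Within the 3 runs that held both groups, 4 of the 8 classes passed an exact permutation test. ΔN(1–265) differed by −0.329 percentage points at 100 to 200 kb (adjusted p = 0.00988, exact permutation test) and by −0.427 at 200 to 400 kb (adjusted p = 0.0104, exact permutation test). It was higher by 0.594 percentage points at 1600 to 3200 kb and by 0.178 beyond (adjusted p = 0.00296 for both, exact permutation test). The spread between runs exceeded these differences, as the plot by run shows.

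**Figure D1:**
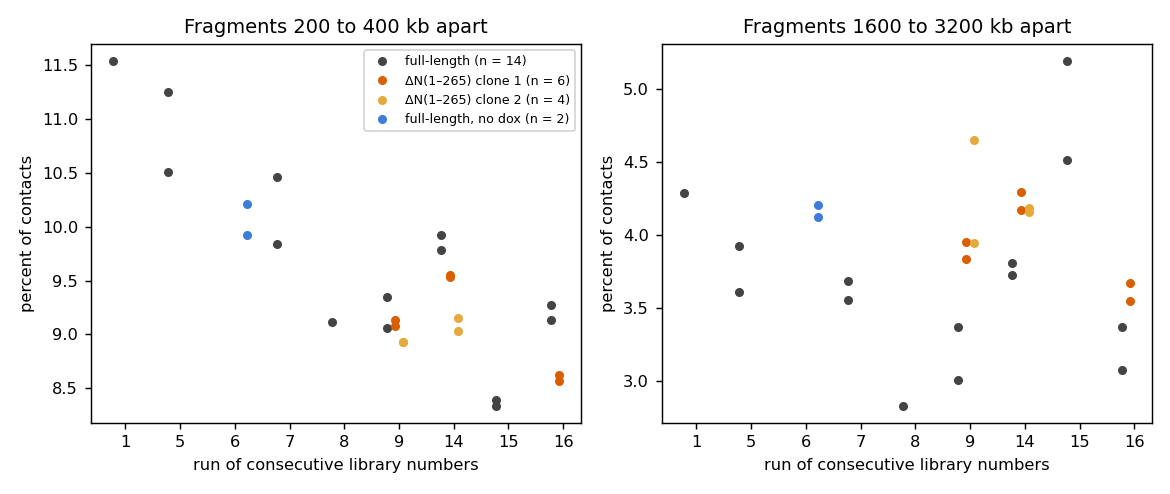
Percent of a library's corrected contacts between fragments 200 to 400 kb apart (left) and 1600 to 3200 kb apart (right), for each library by its run of consecutive library numbers. In each of runs 9, 14 and 16, which hold both groups, the ΔN(1–265) points at 1600 to 3200 kb lie above the full-length points, and full-length libraries of the other runs span a wider range.

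Contacts between segments differed in a place-dependent way once the fall with distance had been taken out. For each library and pair of segments, the summed contacts were divided by those expected from the mean at equal distance in that library, and log2 of this ratio is given. Of 28 blocks (7 interiors and 21 pairs of segments), 14 passed the test, 6 higher and 8 lower in ΔN(1–265) (50% called). The largest rises were between segments 1 and 3 and between segments 5 and 6, and the largest falls between segments 2 and 4 and between segments 6 and 7. Within runs 21 of 28 blocks passed the test, and 12 passed in each clone alone. From raw counts 8 passed, 5 higher and 3 lower.

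Across boundary 5, between the Rlim segment 5 and segment 6, the lowest, median and highest ratios were −0.44, −0.35 and −0.20 in full-length and −0.13, −0.11 and −0.050 in ΔN(1–265). Clone 2 gave −0.076, −0.10, −0.11 and −0.10 in its 4 libraries. No ΔN(1–265) library reached down to a full-length one. Contacts rose by 0.23 on the log2 scale (SE 0.019, adjusted p = 4.67e-05, permutation test), by 0.23 in clone 1, by 0.23 in clone 2 and by 0.23 within runs. The 2 libraries without dox stood at −0.064 and −0.067.

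Across boundary 6, at Cox7b and Atp7a, the change went the other way. Ratios between segments 6 and 7 were 0.030, 0.13 and 0.20 in full-length and −0.18, −0.14 and −0.11 in ΔN(1–265) (lowest, median and highest), with −0.11, −0.14, −0.13 and −0.15 in the libraries of clone 2. The groups did not overlap, and the ratio passed from above to below 0. The difference was −0.27 (SE 0.016, adjusted p = 4.67e-05, permutation test), −0.28 in clone 1, −0.26 in clone 2 and −0.25 within runs. Without dox the values were −0.029 and −0.011.

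The other neighbouring segments changed less. Contacts of segments 1 and 2, across boundary 1 inside Nhsl2, went from 0.25 ± 0.051 to 0.39 ± 0.029 (SD, n = 14 and 10) without overlap of the groups, a rise of 0.14 (adjusted p = 4.67e-05, permutation test). Across boundary 2 the difference was −0.050 (adjusted p = 0.00247, permutation test), and across boundary 4 it was −0.10 (adjusted p = 0.00849, permutation test). Both were falls, with overlapping groups, and the fall across boundary 4 did not pass in clone 2 alone (−0.092, adjusted p = 0.112, exact permutation test). Across boundary 3 the difference of −0.040 did not pass (adjusted p = 0.111, permutation test), although it did without full-length replicate 3b (−0.053) and within runs (−0.059, adjusted p = 0.00610, exact permutation test). In the test of all libraries, contacts summed over whole segments thus rose across 2 of the 6 boundaries and fell across 3.

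**Figure D2:**
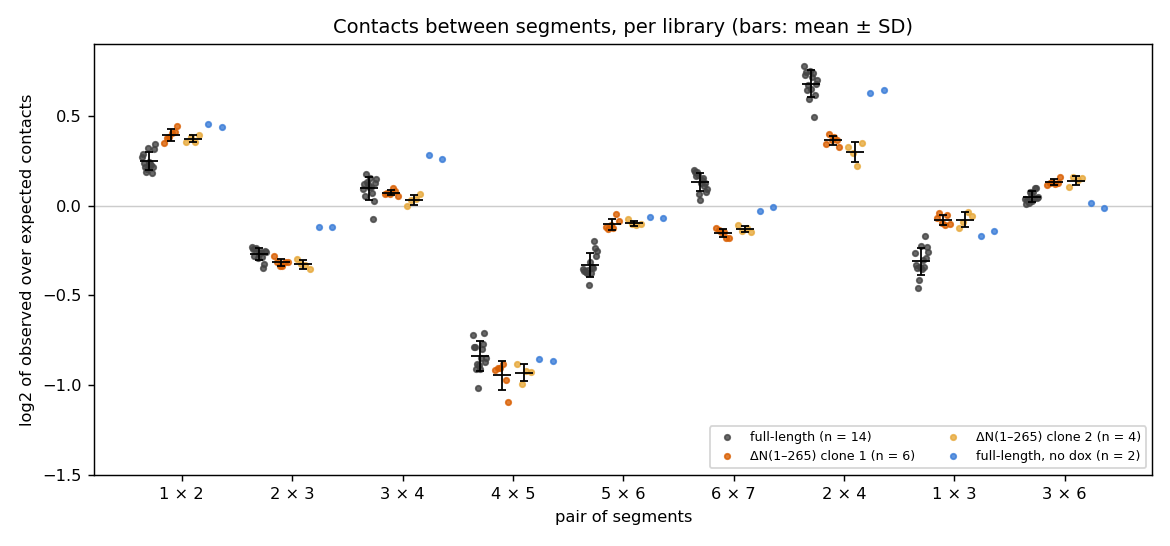
Log2 of observed over expected contacts between pairs of segments, 1 point per library, for full-length, both ΔN(1–265) clones and the full-length line without dox, with bars for mean ± SD of groups over 2 libraries. The ΔN(1–265) points lie apart from the full-length points for 1 × 2, 5 × 6, 6 × 7, 2 × 4, 1 × 3 and 3 × 6, above them in 4 pairs and below them for 6 × 7 and 2 × 4.

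Segments 2 and 4 do not touch each other, yet the contacts between them changed most. Segment 2 ends at boundary 2, and segment 4 holds Chic1, Tsx and Tsix, the gene antisense to Xist. The ratios were 0.49, 0.69 and 0.78 in full-length and 0.22, 0.35 and 0.40 in ΔN(1–265) (lowest, median and highest), and clone 2 gave 0.33, 0.29, 0.22 and 0.35. Again no library of one group reached the other. The difference was −0.34 (SE 0.026, adjusted p = 4.67e-05, permutation test), −0.32 in clone 1, −0.38 in clone 2 and −0.37 within runs. The libraries without dox stood at 0.63 and 0.65, inside the full-length range.

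Segments 1 and 3, which lie on either side of segment 2, moved in the opposite direction. Their ratios were −0.46, −0.32 and −0.17 in full-length and −0.13, −0.082 and −0.035 in ΔN(1–265), with −0.13, −0.094, −0.035 and −0.057 in clone 2. No value was shared between the ranges, and the rise was 0.23 (SE 0.023, adjusted p = 4.67e-05, permutation test; 0.21 within runs). Segment 6 gained contacts with segment 4 (0.17, adjusted p = 0.00042, permutation test) and, without overlap of the groups, with segment 3 (0.084, adjusted p = 8e-05, permutation test). Segments 2 and 5 lost contacts, with a difference of −0.11 (adjusted p = 0.00259, permutation test), which did not pass in clone 1 alone (−0.069, adjusted p = 0.0821, exact permutation test).

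**Figure D3:**
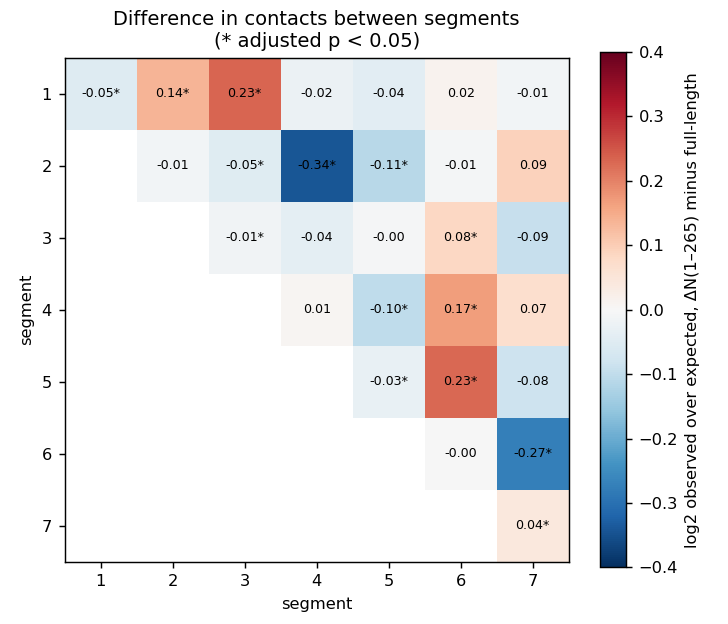
Difference of mean log2 observed over expected contacts, ΔN(1–265) (n = 10) minus full-length (n = 14), for the 7 interiors on the diagonal and the 21 pairs of segments, with a star for an adjusted p under 0.05. The darkest fields are 2 and 4 and 6 and 7, which are lower, and 1 and 3 and 5 and 6, which are higher.

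Summed over whole interiors of segments, the ratios changed little beside those between segments. Interiors hold many of the contacts that set the expected value, which limits how far their ratios can move. In segment 5 the ratio went from −0.012 ± 0.012 to −0.043 ± 0.0050 (SD, n = 14 and 10), a difference of −0.030 with no overlap between the groups (adjusted p = 4.67e-05, permutation test). Segment 1 fell by 0.052 (adjusted p = 0.000218) and segment 3 differed by −0.014 (adjusted p = 0.000175, permutation tests). From raw counts segment 3 differed by 0.052, the opposite sign. Segment 7 rose by 0.041 (adjusted p = 0.0164, permutation test), which did not pass in either clone alone. Segment 2 differed by −0.012, which passed without full-length replicate 8, 12 or 13 (−0.015, −0.014 and −0.014), segment 4 with Tsix by 0.0067 and segment 6 by −0.0015, and with all libraries none of these passed (adjusted p = 0.0859, 0.272 and 0.272, permutation tests). Within runs segment 4 (0.015, adjusted p = 0.00610) and segment 6 (−0.0027, adjusted p = 0.00277, exact permutation tests) did pass.

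Without the division by the expected value, as log2 of contacts per 1000000, 9 of 28 blocks passed (32.1% called), 5 higher and 4 lower. The difference between segments 6 and 7 was −0.34 (adjusted p = 0.00028) and that between segments 2 and 4 was −0.40 (adjusted p = 0.00028, permutation tests). Segments 5 and 6 rose by 0.17 (adjusted p = 0.00427) and segments 1 and 3 by 0.16 (adjusted p = 0.0109, permutation tests). Among interiors, only segment 7 passed, with a rise of 0.078 (adjusted p = 0.00427, permutation test), and the differences of segments 1 to 6 lay between −0.029 and 0.039. Segments 2 and 7 rose by 0.41 and segments 4 and 7 by 0.31 (adjusted p = 0.0241 and 0.0211, permutation tests), although over distance neither pair passed with all libraries and only segments 2 and 7 did within runs (0.15, adjusted p = 0.00189, exact permutation test). Segments 4 and 5 differed by −0.17, which no longer passed without clone 1 replicate 5 or 6 (−0.16 and −0.15), and segments 2 and 3 by −0.13 (adjusted p = 0.0499, permutation test), which passed in 5 of the 24 repeats that left out 1 library. Of neighbours, segments 1 and 2 (0.058) and segments 3 and 4 (−0.12) did not pass. From raw counts, 2 blocks passed and both were lower. Within runs 23 of 28 blocks passed this test, and without full-length replicate 3b 15 did.

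The rises and falls were not spread evenly over the map. Of 13855 pairs of 20-kb bins at least 40 kb apart, 1040 were called by limma (7.51%), 812 lower in ΔN(1–265) (5.86%) and the others higher (1.65%). All 1040 had the same sign in both clones, but both clones entered the calls and share the full-length reference, so this is no separate support. In each clone alone, 176 of the 1040 passed. Of the 1040, 336 also passed within runs and 399 against the 9 full-length libraries of the later primer set. None passed with the opposite sign there, where the libraries are part of those used for the calls. As log2 observed over expected, which takes out each library's fall with distance, 1173 were called, 487 higher and 686 lower. The median difference over all pairs tested was −0.034 on the log2 scale. Contacts between segments 6 and 7 held 244 lower bin pairs of 795 and none higher, and contacts between segments 5 and 6 held 111 higher of 1992 and 13 lower. Between segments 2 and 4, 27 of 120 were lower, within segment 1 30 of 105, and between segments 3 and 4 46 of 300, where 11 others were higher. Inside segment 4, 8 of 36 bin pairs rose and 7 fell, so that its small total difference covers changes in both directions.

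**Figure D4:**
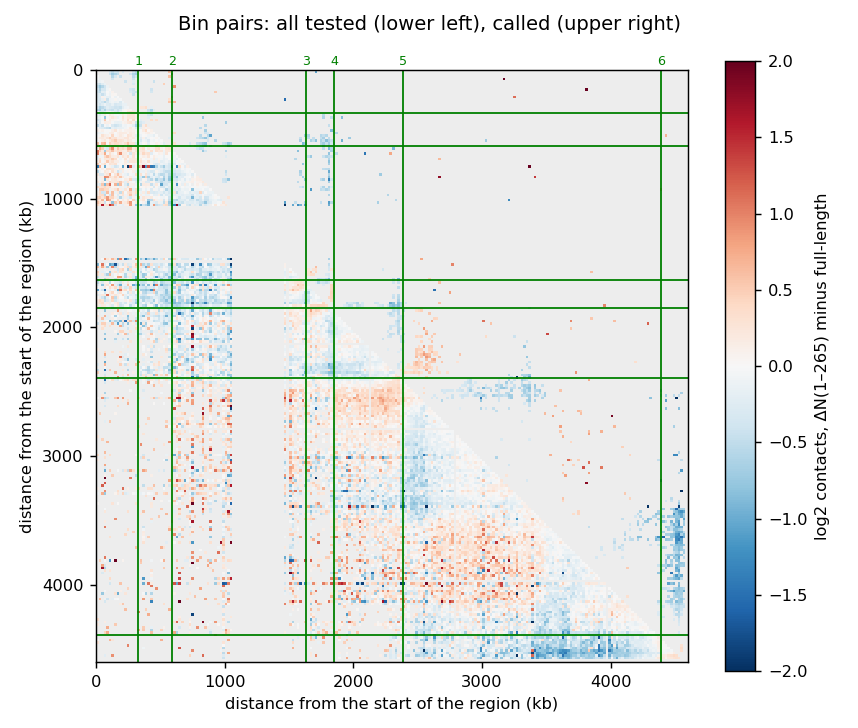
Difference in log2(contacts per 1000000 + 0.1) for each pair of 20-kb bins, ΔN(1–265) minus full-length, with all 13855 pairs tested in the lower left and the 1040 called in the upper right, on axes of distance from the start of the region in kb, with green lines at the 6 boundary bins. A block of lower pairs fills the corner between segments 6 and 7, a patch of higher pairs lies across boundary 5, and grey marks pairs that were not tested or not called.

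Bin pairs with a FLAG–CTCF peak at both ends were called lower in 103 of 734 cases, those with a peak in 1 bin in 370 of 4691 and those with none in 339 of 8430, beside the 5.86% over all pairs. Higher pairs numbered 13, 95 and 120. The bin with most lower pairs was chrX:103351148-103371147 in segment 7, with 54 of 109 tested. The second was chrX:100631148-100651147 inside Tsix, which holds 3 peaks, with 43 of 132 lower and 2 higher. Bin chrX:101171148-101191147 at Rlim, the gene of a ubiquitin ligase that acts on X inactivation, also holds 3 peaks and had 22 lower and 12 higher of 173.

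The bin pairs with the smallest p, chosen after their values were seen, met repeatedly in the Tsix bin chrX:100631148-100651147. Its contacts with boundary 3, 180 kb upstream, were 31.5, 34.5 and 38.0 (mean over primer pairs of contacts per 1000000) in full-length and 17.0, 18.8 and 21.6 in ΔN(1–265) (lowest, median and highest). The groups were apart, and the difference was −0.86 (SE 0.059, limma adjusted p = 2.89e-09; −0.86 within runs). The same Tsix bin fell by 1.33 with chrX:99671148-99691147 in Hdac8, 960 kb away, and fell by 1.10 with chrX:99851148-99871147, 780 kb away (limma adjusted p = 1.96e-07 and 5.68e-07). The printed matches in Tsix and Hdac8 both lie on the minus strand and do not face each other. The Tsix bin holds 3 peaks, and the strands of those not printed are not given here. The Hdac8 bin in turn lost contacts with boundary 2. Their values were 23.3, 30.3 and 39.2 in full-length and 9.63, 12.5 and 16.9 in ΔN(1–265), again without overlap, with a difference of −1.23 (limma adjusted p = 4.12e-07). The printed match of boundary 2 on the plus strand faces the printed match in Hdac8 on the minus strand. Another peak of the boundary 2 bin, chrX:99415270-99415469, holds a match on the minus strand.

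The neighbouring bin, inside Tsix and over part of Xist, chrX:100651148-100671147, lost contacts with the Rlim bin 520 kb downstream. Full-length libraries held 6.57, 7.19 and 9.41 contacts per 1000000 and ΔN(1–265) libraries 3.17, 4.05 and 5.37, apart from each other (difference −0.85, limma adjusted p = 3.54e-06). The Rlim bin rose instead with 2 bins of segment 6, by 0.40 at chrX:101271148-101291147 and by 0.58 at chrX:101411148-101431147 (limma adjusted p = 0.000353 and 0.000184). Farther inside segment 5, chrX:101091148-101111147 went from 3.10, 4.63 and 5.81 to 6.04, 7.06 and 8.22 with chrX:101311148-101331147, 220 kb away across boundary 5, and no library of one group reached the other (difference 0.66, limma adjusted p = 0.000136). Across boundary 3, chrX:100391148-100411147 and chrX:100491148-100511147, which lie in and at one end of the gene 4930519F16Rik, rose by 0.58 (limma adjusted p = 0.000184).

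The bin pairs with the largest called changes, taken by size and at least 100 kb apart, varied widely between libraries, and 0 was listed in at least 1 library for each. The largest rise joined chrX:98891148-98911147 and chrX:101991148-102011147, 2.19 on the log2 scale, with 12 of 14 full-length and 4 of 10 ΔN(1–265) libraries at 0. The next joined chrX:99571148-99591147 and chrX:102191148-102211147 (2.14, 13 and 4 libraries at 0) and chrX:98971148-98991147 and chrX:102631148-102651147 (2.14, 11 and 2 at 0). The other rises were inside segment 6, chrX:101511148-101531147 and chrX:102831148-102851147 (1.92) and chrX:102031148-102051147 and chrX:102631148-102651147 (1.80). These 5 pairs lay 600 to 3660 kb apart, and their groups overlapped. The minimum mean of 0.5 for a tested bin pair was taken over all 24 libraries. Full-length means were 0.030, 0.070, 0.055 and 0.44 for the rises of 2.19, 2.14, 2.14 and 1.92. These lay under the minimum, so the pairs were tested only through their ΔN(1–265) values, and their size is no separate support for a change.

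The largest fall joined chrX:99871148-99891147 and chrX:100291148-100311147 inside segment 3, with no tested bin between them (−2.95). Its median was 15.1 in full-length and 5.25 in the libraries of clones 1 and 2. Of the latter, 4 of 10 were at 0, and no full-length library was. The −2.95 rests on log2 values with a pseudocount of 0.1, where zeros weigh heavily, and is not the change between these medians. The next falls are given with the full-length libraries at 0 and then those of both clones. They joined chrX:102211148-102231147 and chrX:103111148-103131147 (−2.81, 3 and 8 at 0) and chrX:101371148-101391147 and chrX:103331148-103351147 (−2.27, 1 and 5). The others joined chrX:101211148-101231147 and chrX:102091148-102111147 (−2.27, 0 and 3) and chrX:102091148-102111147 and chrX:103371148-103391147 (−2.15, 1 and 7). Of these 10 pairs, 2 also passed within runs, chrX:101511148-101531147 and chrX:102831148-102851147 and chrX:102211148-102231147 and chrX:103111148-103131147 (limma adjusted p = 0.0400 and 0.0487). When each of the 24 libraries was left out in turn, the rise at chrX:99571148-99591147 and chrX:102191148-102211147 passed in 5 repeats, the falls at chrX:99871148-99891147 and chrX:100291148-100311147 and chrX:101211148-101231147 and chrX:102091148-102111147 in 8 each and that at chrX:102091148-102111147 and chrX:103371148-103391147 in 17. The rise at chrX:98891148-98911147 and chrX:101991148-102011147 was lost without clone 1 replicate 6 or clone 2 replicate 1, that at chrX:101511148-101531147 and chrX:102831148-102851147 without clone 2 replicate 1, and the fall at chrX:102211148-102231147 and chrX:103111148-103131147 without clone 1 replicate 6 or clone 2 replicate 3.

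Each primer's contacts can lean upstream or downstream, and this lean changed at many fragments. It is given as log2 of contacts with partners downstream over partners upstream, both 40 to 500 kb away. Of 844 primers, 403 were called by limma (47.7%), 188 higher in ΔN(1–265) (22.3%) and the others lower (25.5%), and 207 of them passed in each clone alone. At boundary 4, 3 of 4 primers fell, whereas at boundary 5 4 of 5 and at boundary 6 all 3 rose. In segment 1, 28 of 49 primers rose and 1 fell, in segment 4 22 rose and 23 fell of 52, and in segment 5 46 rose and 16 fell of 120. Falls prevailed in segment 6, where 45 of 423 rose and a larger number fell (median difference of all −0.048), and in segment 2, with 20 lower and 5 higher of 54, and at boundaries 1, 2 and 3 2 primers each fell and none rose. In segment 3, 12 rose and 13 fell of 92. In segment 7, after boundary 6, 23 of 31 rose and none fell.

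The 5 largest rises stood side by side at chrX:101178471-101185030, between the 5′ end of Rlim and its nearest peaks. At the fragment chrX:101184836-101185030, 1.00 kb from a peak, the lean was −1.86, −1.53 and −1.15 in full-length and −1.02, −0.66 and −0.47 in ΔN(1–265) (lowest, median and highest). Contacts leaned upstream, towards Xist, in every library, but less so in all ΔN(1–265) libraries than in any full-length library. The difference was 0.79 (SE 0.072, limma adjusted p = 5.84e-10; 0.84 in clone 1, 0.71 in clone 2 and 0.74 within runs). The 4 others rose by 0.64 to 0.74, each with groups that did not overlap. At chrX:101178471-101178882 the median passed from −0.50 to 0.14, so that the side with more contacts switched.

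The 5 largest falls stood at boundary 2 and at boundary 4 or just before it, in segment 4. At chrX:100672498-100681342, the fragment over the 5′ end of Xist with 1 of the printed sequences, the lean was 1.13, 1.48 and 2.16 in full-length and 0.21, 0.75 and 0.91 in ΔN(1–265). It pointed downstream in all libraries, and the difference of −0.85 (SE 0.098, limma adjusted p = 3.16e-08) left no overlap. The 2 fragments before it, chrX:100670195-100672498 and chrX:100667752-100670195, changed by −0.75 and −0.73. At boundary 2, chrX:99422366-99424502 went from 1.38, 1.98 and 2.15 to 1.01, 1.13 and 1.28 without overlap (−0.82, limma adjusted p = 4.27e-11). The fragment before it, chrX:99404546-99422366, with the printed sequence of boundary 2, changed by −0.83 and overlapped.

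**Figure D5:**
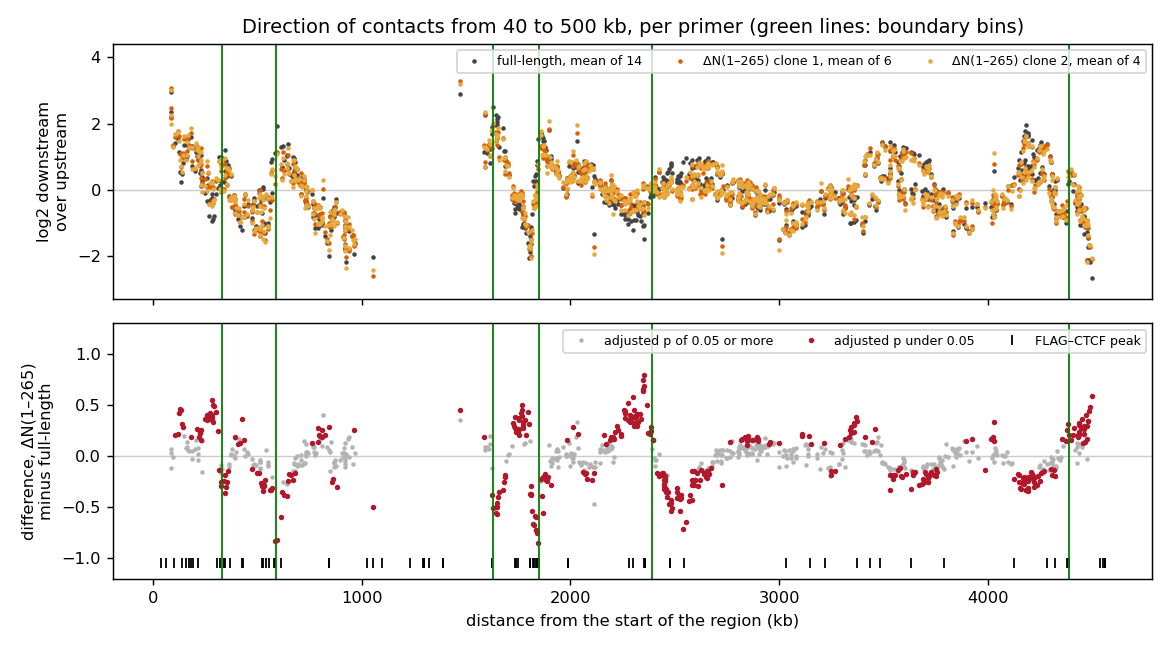
Lean of each primer's contacts (log2 downstream over upstream, partners 40 to 500 kb away) along the region in kb, as group means (top) and as the difference ΔN(1–265) minus full-length (bottom), with called primers in red, FLAG–CTCF peaks as ticks and boundary bins as green lines. Differences reach 0.79 before boundary 5 and −0.85 at boundary 4, and both clones follow each other in the upper panel.

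The reach of a primer is log2 of its contacts beyond 300 kb over those from 40 to 300 kb. Among segments, the shares of primers called were largest at both ends of the region. Of 919 primers, 256 were called by limma (27.9%), 113 higher (12.3%) and 143 lower (15.6%). In segment 1, 46 of 67 primers reached farther in ΔN(1–265) and none less far, and in segment 7, 39 of 52 reached less far and none farther. Segment 6 held 30 higher and 68 lower of 423, and all 3 primers of boundary 6 were lower. With run as a term 340 primers were called, of which 234 were higher, so that rises then outnumbered falls. At the ends of the region partners lie on one side only, which limits the measure there.

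By size, the 5 largest rises lay at the start of segment 1. At chrX:98862021-98867230 full-length libraries gave −1.14, −0.76 and −0.40 and ΔN(1–265) libraries −0.34, −0.30 and −0.011 (lowest, median and highest). The groups were apart, with a rise of 0.50 (SE 0.074, limma adjusted p = 1.24e-05). The others were chrX:98870524-98870748 (0.73), chrX:98831148-98834145 (0.59), chrX:98870748-98872272 (0.50) and chrX:98855722-98862021 (0.49), with overlapping groups. Without clone 1 replicate 2 or clone 2 replicate 1, where it was 0.47 or 0.44, the rise at chrX:98831148-98834145 no longer passed.

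The 5 largest falls of reach lay in segment 7, beyond Atp7a, the gene of a copper transporter. At chrX:103365839-103374010 full-length libraries gave 0.16, 0.41 and 0.58 and ΔN(1–265) libraries −0.41, −0.19 and −0.074. All full-length values were above 0 and all ΔN(1–265) values below it, a difference of −0.60 (SE 0.053, limma adjusted p = 9.58e-09; −0.56 within runs). The other 4 lay at chrX:103349406-103399442 and changed by −0.56 to −0.61.

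Counts of single primer pairs, before any correction, gave 126 called of 89470 by edgeR (0.141%), 11 higher (0.0123%) and 115 lower (0.129%). All kept their sign in both clones, which both entered the calls. In each clone alone 10 passed, and 70 also passed within runs. Without full-length replicate 3b 190 pairs were called. With run as a term 101 pairs were lower and a larger number higher, and by DESeq2 101 were higher and 378 lower. The pair with the smallest p, chosen after its values were seen, joined boundary 3 and Tsix, chrX:100455323-100468776 and chrX:100629519-100633845. It held 108, 132 and 173 counts per 1000000 in full-length and 26.6, 42.6 and 53.8 in ΔN(1–265) (lowest, median and highest of 12 and 10 libraries). No full-length library came near a ΔN(1–265) library, and the difference was −1.67 (SE 0.14, edgeR adjusted p = 1.67e-10).

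By size, the largest fall joined chrX:102462203-102462513 and chrX:103207830-103209914, fragments that hold the 2 peaks of segment 6 printed above. Full-length libraries held 3.79, 6.64 and 10.2 counts per 1000000 and ΔN(1–265) libraries 0, 0.584 and 4.44, with 3 ΔN(1–265) libraries at 0. The groups overlapped in their tails, and the difference was −2.85 (SE 0.51, edgeR adjusted p = 0.00332). The plus-strand match at the first end faces the minus-strand match at the other, 747 kb downstream.

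The next falls joined segment 6 with segment 7 and Tsix with Rlim. At chrX:102474392-102477588 and chrX:103358172-103362055 the counts per 1000000 were 4.39, 8.95 and 19.4 and 0.757, 1.48 and 3.06 (−2.58, edgeR adjusted p = 5.43e-07). The pair in Tsix and before the Rlim peaks, chrX:100641123-100642113 and chrX:101184836-101185030, held 12.2, 16.8 and 18.6 in full-length and 0, 2.82 and 5.74 in ΔN(1–265) (−2.28, edgeR adjusted p = 1.31e-06). In both pairs the groups were apart. The printed matches in Tsix and near Rlim both lie on the minus strand and do not face each other. The peak nearest to this Tsix fragment, 2.3 kb away, is however not the printed peak, and its strand is not given here. Smaller falls were −2.20 between the Hdac8 peak and Tsix, chrX:99673333-99678075 and chrX:100640516-100641123, and −1.90 between chrX:102266972-102267792 and chrX:103358172-103362055, both with overlap and neither passing within runs. The former was lost without full-length replicate 3, and the latter passed in 5 of the 22 repeats that left out 1 library.

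The 5 largest rises of primer-pair counts were smaller than the falls, and their groups overlapped. They joined segments 5 and 6 in 2 cases, chrX:101037206-101039662 and chrX:101484969-101485347 (1.59, edgeR adjusted p = 0.0325) and chrX:101030047-101030680 and chrX:101352581-101354775 (1.11, edgeR adjusted p = 0.00671). In the latter, full-length libraries held 3.42, 5.12 and 7.92 counts per 1000000 and ΔN(1–265) libraries 6.38, 10.8 and 16.3. The other 3 were chrX:103291220-103292131 and chrX:103399442-103402749 inside segment 7 (1.14), chrX:100477396-100479327 and chrX:100672498-100681342 from segment 4 to boundary 4 (1.03) and chrX:100414219-100417510 and chrX:100516663-100519545 across boundary 3 (0.97). None of the rises passed in either clone alone, and 1, chrX:101030047-101030680 and chrX:101352581-101354775, passed within runs (edgeR adjusted p = 0.0150). With 1 library left out, the rises at chrX:101037206-101039662 and chrX:101484969-101485347, chrX:100477396-100479327 and chrX:100672498-100681342 and chrX:100414219-100417510 and chrX:100516663-100519545 passed in 10, 12 and 8 of 22 repeats, and that in segment 7 was lost without clone 1 replicate 1.

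Averaged over the region, contacts between bins with FLAG–CTCF peaks differed little. Over bin pairs 100 to 1000 kb apart, 2 of 3 classes were called (66.7%). With a peak in both bins (344 bin pairs), mean log2 observed over expected was 0.10 ± 0.029 in full-length and 0.064 ± 0.050 in ΔN(1–265) (SD, n = 14 and 10), a difference of −0.040 (adjusted p = 0.0261, permutation test). With no peak in either bin the difference was 0.057 (adjusted p = 0.0261, permutation test), and with a peak in 1 bin it was 0.0012 (adjusted p = 0.950, permutation test). Neither call held in a clone alone. Without clone 1 replicate 6 or clone 2 replicate 1 the first difference was −0.032 or −0.029 and no longer called, and from 200 to 600 kb it was 0.015, the opposite sign.

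Differences between the clones were tested last. An exact permutation test of 6 against 4 libraries called none of 8 distance classes and none of 28 blocks over distance, with 1 and 4 at an unadjusted p under 0.05, at a smallest possible p of 0.00476. Over 28 blocks a single block at this p adjusts to 0.133, so none could pass alone and the count of blocks says nothing on whether the clones are alike. Segments 2 and 5 reached this smallest p, with a mean of −0.022 ± 0.029 in clone 1 and −0.12 ± 0.041 in clone 2 (SD, n = 6 and 4, exact permutation test). The lowest unadjusted p among distance classes was 0.0476 beyond 3200 kb, where clone 1 held 0.725% ± 0.0773 of its contacts and clone 2 0.847% ± 0.0955 (SD, n = 6 and 4, exact permutation test). For segments 5 and 6 the difference of clone 2 minus clone 1 was 0.0052, for segments 6 and 7 0.023 and for segments 2 and 4 −0.066, each smaller than the difference of either clone from full-length.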

How the data were processed

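5C libraries were made from HindIII fragments, and ligation products were read on pairs of forward and reverse primers. The submitters' processing notes name Bowtie2 and SAMtools, which the study's methods describe for ChIP-seq; the aligner of the 5C reads is not given in the sources used here. The authors deposited raw counts of each primer pair for each library, and also matrices of signal that they had balanced by iterative correction (ICE) at fragment level. FLAG–CTCF peaks were the authors' list in mm9 coordinates.

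Each corrected matrix was restricted to the 919 primers measured in every library (211110 forward–reverse pairs) and scaled to a total of 1000000. Primer pairs were averaged in 20-kb bins, with a minimum mean of 0.5 and a pseudocount of 0.1 for the map of bin pairs at least 40 kb apart, and the 6 boundary bins left out of segments. Distance classes, blocks and peak classes were compared by two-sided permutation of the difference in means (100000 resamples, smallest p 1e-05; exact for clones), bin pairs, reach and lean with limma, and raw counts with edgeR's quasi-likelihood test (mean of at least 10, no other filter), each with Benjamini-Hochberg adjustment and a threshold of 0.05. Values within runs come from exact permutations within the 3 runs of library numbers that held both groups (1350 permutations, smallest p 0.000741) or from run as a term in the fit. Libraries held 4509541 to 23419010 counts. Depth and counting limit single primer pairs, and library spread is the error given. No 2 of the 22 libraries with complete counts were equal: of primer pairs counted in both, at most 6.53% held the same count. The 2 full-length libraries with incomplete counts were not compared in this way.

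Named were, among features called with equal sign in both clones, the 5 largest rises and the 5 largest falls, for pairs only at least 100 kb apart and not within 60 kb of one already taken, and beside these the 5 smallest p in each direction, chosen after values were seen, of which 1 bin pair is not reported here. Hdac8 and Magt1 are named as the genes at printed peaks (GENCODE annotation of mm9). Members, lists and tests were chosen with earlier results of these data known. Scripts were tested on simulated data. Alternatives were another normalization (DESeq2), raw or thinned counts, no count minimum, shifted boundaries, clones alone, each library left out, replicate number or run as block and full-length libraries left out. Tools were Python 3.11.15 with NumPy 2.4.6 and SciPy 1.17.1, and R 4.3.3 with limma 3.58.1, edgeR 4.0.16 and DESeq2 1.42.0.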

Additional observations from a re-analysis of the deposited data

Results flagged for a closer look

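In the contacts between segments 5 and 6 over distance, clone 2 replicate 1 stood at −0.0762, above the other 3 libraries of clone 2, which lay between −0.109 and −0.104. Its gap to the nearest of them was 0.835 of the group's whole range, over the critical value for 4 samples. It was the only such value in 56 groups of libraries examined, and chance alone gives about 1 in 20. The library also held the highest share of contacts beyond 3200 kb among ΔN(1–265) libraries (0.986%), and its part in the value was not tested. Without it the rise across boundary 5 remained called.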

How the results depend on the processing

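Distance classes called (0) became 4 within runs and without full-length replicates 3b and 4b, 2 with a replicate block and without pairs under 20 kb apart, and 0 to 1 with 1 library left out. Without the 5 full-length libraries of the earlier primer set, the difference turned to −0.641 percentage points under 50 kb, 0.236 at 50 to 100 kb, 0.000917 at 100 to 200 kb and 0.0248 at 400 to 800 kb, and without pairs under 20 kb it was 0.170 at 50 to 100 kb. Blocks called (9 of 28) became 3 in clone 1, 2 in clone 2, 23 within runs, 5 with the replicate block, 15 without 3b and 4b, 2 from raw counts, 2 from thinned counts and 6 to 15 with 1 library left out. Interiors not called with all libraries turned sign: segment 3 at −0.00302 in clone 2, −0.0167 within runs (called there, adjusted p = 0.0252, exact permutation test), −0.0189 without the earlier set and −7.92e-05 with boundaries shifted, segment 2 at −0.00343 within runs and −0.0190 without the earlier set, segments 5 and 6 at 0.00992 and 0.00555 with the replicate block, and segment 4 at −0.00809 from raw and −0.00902 from thinned counts. With 1 library left out segment 3 ranged from −0.00481 to 0.00712. Blocks over distance (14) became 8 from raw and 8 from thinned counts, and 14 to 17 with 1 library left out. There segment 3 turned to 0.0521 and 0.0520 from raw and thinned counts, and segment 4 to −0.0350 and −0.0361, and to −0.000371 with the replicate block. Peak classes called (2) became 0 in clone 1, 0 in clone 2, 0 with the replicate block, 0 at 200 to 600 kb, 1 without the earlier set, 1 from raw counts and 1 to 2 with 1 library left out. A peak in 1 bin gave −0.0172 in clone 2, −0.0170 within runs, −0.0146 without 3b and 4b, −0.0376 with zeros kept (called there, adjusted p = 5e-05, permutation test) and −0.00962 to 0.0103 with 1 library left out, and a peak in both bins gave 0.0146 at 200 to 600 kb.

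Bin pairs called (1040, 7.51%) became 425 within runs (3.07%), 426 with the replicate block (3.07%), 498 in clone 1 (3.59%), 2.17% in clone 2, 464 without the earlier set (3.35%), 1579 without 3b and 4b (11.4%), 577 with the median in place of the mean over primer pairs (5.51%) and 6.30% to 9.09% with 1 library left out. Reach (256, 27.9%) became 17.1% in clone 1, 93 in clone 2 (10.1%), 17.3% without the earlier set and 434 without 3b and 4b (47.2%). Lean (403, 47.7%) became 247 in clone 2 (29.3%). Primer pairs (126, 0.141%) became 0.284% within runs, 22 with the replicate block (0.0246%), 63 in clone 1 (0.0704%), 14 in clone 2 (0.0156%), 75 without the earlier set (0.0838%), 426 without 3b and 4b (0.476%), 479 by DESeq2 (0.535%), 3234 without a count minimum (1.54%, 2801 higher and 433 lower) and 0.101% to 0.212% with 1 library left out. In clone fits and with libraries left out fewer samples were tested; the cause of the other shifts was not tested. Tandem motif pairs gave 0.0415 in clone 1, 0.0135 with the replicate block, 0.00272 with zeros kept, 0.0828 at 200 to 600 kb and −0.0417 to 0.0115 with 1 library left out. Of all other comparisons of single values, 2359 kept their direction and side of the threshold, 300 lost and 42 gained a call. The sets without the earlier libraries or without 3b and 4b were chosen after seeing the data.

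Replicate numbers did not pair the libraries: deviations of equal numbers correlated by −0.56 to 0.52 (median −0.14, 14 pairs), so a replicate block stands only for a shared number. Depth limits single pairs, and 27.4% to 59.0% of all primer pairs were at 0 in a library.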

Other observations

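Contacts between peak bins differed by the strands of their motif matches, a split that was added after seeing the data. Of 78 peaks in the region, 43 held a match to AGNGGGC or AGGTGGC, and 23 bins held matches on 1 strand only. Bin pairs 100 to 1000 kb apart with facing matches (plus strand upstream, minus strand downstream, 14 bin pairs) had a mean log2 observed over expected of 0.32 ± 0.18 in full-length and 0.023 ± 0.065 in ΔN(1–265) (SD, n = 14 and 10). The difference was −0.29 (adjusted p = 0.00018, permutation test; −0.25 within runs). Pairs facing away from each other (17 bin pairs) went the other way, from −0.032 ± 0.14 to 0.23 ± 0.097 (difference 0.26, adjusted p = 6e-05, permutation test; 0.20 within runs). Pairs on the same strand (38 bin pairs) differed by −0.022 (adjusted p = 0.631, permutation test). The difference between facing and diverging pairs changed by −0.55 (p = 1e-05, permutation test, the smallest that the resamples can give). Without dox the full-length line gave 0.38 and 0.32 for facing and 0.34 and −0.0080 for diverging pairs. The bins that hold these pairs overlap, so the pairs are not independent of each other, and the match of 7 letters is a description of the sequence and not of binding.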
